A study of Homo sapiens with 4 samples.

Results

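Binding of MTF-1, the metal-response transcription factor, was examined at 9 genes of estrogen and growth factor signaling. They are the receptor genes ESR1, PGR and GPER1, the estrogen-response genes GREB1 and TFF1, and the receptor tyrosine kinase genes EGFR, ERBB2, MET and AXL. For each gene, every MTF-1 peak with at least 1 base in the gene or in the 50 kb on either side was taken. The 9 windows span 2053 kb and held 108 of the 69299 peaks of the control list and 94 of the 60130 peaks of the cadmium list. Gene positions and transcript starts are those of GENCODE 44 on hg38.

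The peaks come from CUT&RUN, in which an antibody against MTF-1 brings a nuclease to the bound DNA and the released fragments are sequenced. The cells were MDA-MB-231, an established human breast cancer line. There were 2 control libraries from cells passaged without added metal and 2 libraries from cells that were adapted to cadmium sulfate at 5 µM and then kept in 10 µM for at least 10 passages. The cadmium-treated cells are therefore a selected, resistant population of 1 line, and selection and the presence of the metal cannot be told apart. The authors merged both libraries of a condition before calling peaks, so each condition is 1 list of positions with no height, read count or replicate, and no difference between the lists could be tested. The depth of the libraries is not known from the lists.

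ESR1 encodes estrogen receptor alpha and PGR the progesterone receptor, nuclear receptors that bind DNA when they hold their hormone, while GPER1 is a G protein-coupled receptor of the cell surface that responds to estrogen. Estrogen receptor alpha binds estrogen response elements, inverted repeats of the half-site GGTCA, and its loss from breast tumors marks a class to which MDA-MB-231 belongs. The receptor tyrosine kinases are activated by growth factors outside the cell and pass the signal on through adaptor proteins, and EGFR and AXL are known for their activity in estrogen receptor-negative breast cancer. Cadmium has been studied as a metal that can mimic estrogen, which is the background for examining these genes together.

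A control peak that shared no base with a cadmium peak is called lost, a cadmium peak that shared no base with a control peak is called gained, and all others are shared. The sequences that carry the results are those of lost and gained peaks near the starts of the genes, the only peak at PGR, and the estrogen response element inside the start-site peak of AXL. All are the plus strand of hg38. In the sequences at ESR1, PGR and TFF1, capitals mark 3 motifs, each searched on both strands. They are the AP-1 word TGACTCA, the forkhead word ATAAACA (G also allowed as the first letter and T as the sixth), and the core of the metal response element (MRE), TGCACNC (G also allowed as the fourth letter). AP-1 is the FOS and JUN factor of stress and growth responses, forkhead factors include FOXA1, and MRE cores are the words that MTF-1 itself is known to bind.
ESR1 lost, upstream, chr6:151803650-151803949: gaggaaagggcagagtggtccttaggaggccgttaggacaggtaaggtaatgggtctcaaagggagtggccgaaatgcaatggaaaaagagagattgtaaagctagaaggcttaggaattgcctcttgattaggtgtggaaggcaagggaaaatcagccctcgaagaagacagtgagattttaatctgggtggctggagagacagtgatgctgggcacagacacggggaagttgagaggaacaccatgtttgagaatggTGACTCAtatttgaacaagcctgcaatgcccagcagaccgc
ESR1 lost, first intron, chr6:151808450-151808749: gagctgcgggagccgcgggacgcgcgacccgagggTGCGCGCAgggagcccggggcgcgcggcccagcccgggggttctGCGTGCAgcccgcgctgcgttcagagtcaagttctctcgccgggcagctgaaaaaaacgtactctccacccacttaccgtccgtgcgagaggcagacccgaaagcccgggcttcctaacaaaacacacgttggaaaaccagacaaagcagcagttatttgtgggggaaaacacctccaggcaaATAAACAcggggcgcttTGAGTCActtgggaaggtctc
PGR shared, chr11:101176450-101176749: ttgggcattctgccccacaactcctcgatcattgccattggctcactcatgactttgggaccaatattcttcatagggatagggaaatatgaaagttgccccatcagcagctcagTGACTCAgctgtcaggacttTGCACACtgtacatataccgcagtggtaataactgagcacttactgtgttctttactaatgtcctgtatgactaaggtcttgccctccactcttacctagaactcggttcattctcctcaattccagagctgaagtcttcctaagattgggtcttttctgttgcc
TFF1 gained, chr21:42371050-42371349: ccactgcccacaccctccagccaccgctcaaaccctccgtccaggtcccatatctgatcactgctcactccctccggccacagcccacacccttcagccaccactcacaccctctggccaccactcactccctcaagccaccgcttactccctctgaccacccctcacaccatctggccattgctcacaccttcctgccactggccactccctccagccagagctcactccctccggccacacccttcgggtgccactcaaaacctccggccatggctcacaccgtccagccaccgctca

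The first pair lies in peaks that the cadmium list does not have. The upstream one holds an AP-1 word 3767 to 3773 bp before the canonical start. Its peak lies in an intron of the gene and holds 1 forkhead word beyond the printed bases. The other is the lost peak whose centre is nearest to a start of ESR1. This second peak overlaps an exon of ESR1, and 2 annotated starts of the gene lie inside it. Its printed 300 bases hold an AP-1 word 1047 to 1053 bp downstream of the canonical start, a forkhead word shortly before it and 3 MRE cores, of which 2 overlap, and the whole peak holds 2 forkhead words and 4 MRE cores. The PGR sequence holds 1 AP-1 word and 1 MRE core. The printed TFF1 sequence holds none of these words and has many repeats, with the word CACACC present 7 times in 300 bases, while the rest of that gained peak holds 1 MRE core.

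In the AXL sequence, capitals mark the estrogen response element, written here as the half-site, 3 bases and the inverted half-site.
AXL shared, start site, chr19:41225288-41225587: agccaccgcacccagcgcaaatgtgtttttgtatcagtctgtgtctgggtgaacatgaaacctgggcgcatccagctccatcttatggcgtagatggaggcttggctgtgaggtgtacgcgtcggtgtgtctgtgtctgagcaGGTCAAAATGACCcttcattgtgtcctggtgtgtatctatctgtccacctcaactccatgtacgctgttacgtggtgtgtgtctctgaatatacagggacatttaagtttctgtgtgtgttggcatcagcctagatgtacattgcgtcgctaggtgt

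The AXL element has both half-sites exact and lies 6208 to 6220 bp downstream of the AXL start. It is inside a shared peak, so neither list lacks it.

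Across the 9 windows, 26 of 108 control peaks were lost and 12 of 94 cadmium peaks were gained. The lost share was 24.1% (Wilson 95% confidence interval 17.0 to 32.9%), beside 27.9% of all control peaks. The gained share was 12.8% (7.46 to 21.0%), beside 15.1% of all cadmium peaks. Both shares of the member genes are thus near those of the whole lists. Intervals cover counting error only, and neighboring peaks are not independent.

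The steroid receptor genes lost 7 of 23 control peaks and gained 2 of 18 cadmium peaks, including GPER1 although it is no nuclear receptor. The estrogen-response genes lost 7 of 23 and gained 5 of 21. The kinase genes lost 12 of 62 and gained 5 of 55. The intervals of the lost shares overlap between the 3 roles, with 30.4% (15.6 to 50.9%) for each of the first 2 and 19.4% (11.4 to 30.9%) for the kinases.

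**Figure D1:**
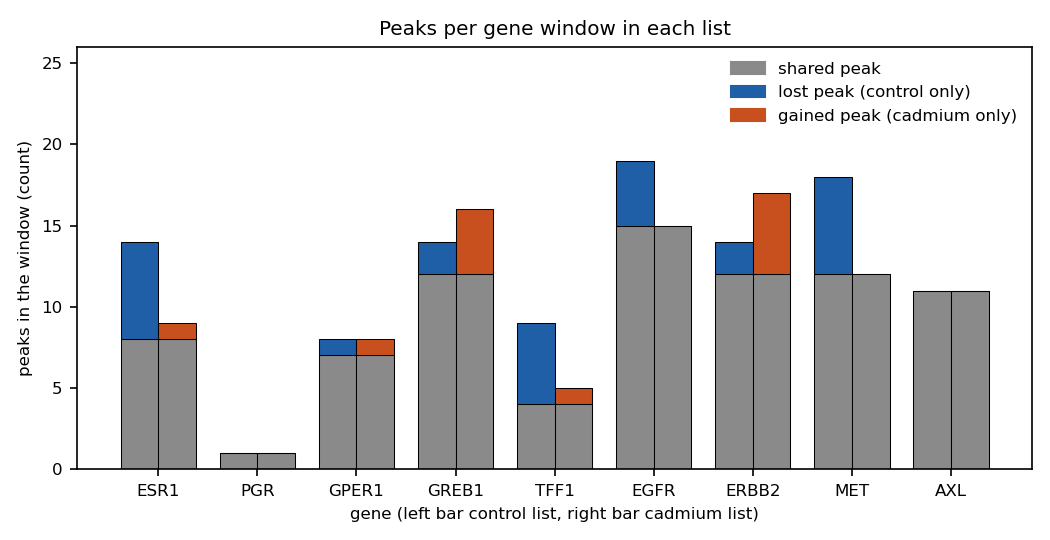
Number of MTF-1 peaks in the gene and 50 kb on either side (vertical axis, count) for each of the 9 genes, with the control list as the left bar and the cadmium list as the right bar. Grey is shared, blue is lost and orange is gained; EGFR and MET have lost peaks and no gained peak, and PGR and AXL have neither.

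The peaks also covered fewer bases. In all, 227146 bp were covered in the control list and 142106 bp in the cadmium list, a ratio of 0.626, with a mean of 2103 bp per control peak and 1512 bp per cadmium peak. The same ratio over the genome was 0.697. Overlapping peaks of the 2 lists formed 81 shared sites, of which 59 were shorter in cadmium, 15 were longer and 7 had the same length. Of all shared sites in the genome, 58.0% were covered over more bases in the control list and 23.7% over more bases in the cadmium list.

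At the kinase genes 40 of 49 shared sites were shorter in cadmium and 6 longer. At the steroid receptor genes 11 of 16 were shorter, and at the estrogen-response genes 8 of 16. Since depth is not known and the whole cadmium list is shorter, what library depth contributes to these lengths was not tested.

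**Figure D2:**
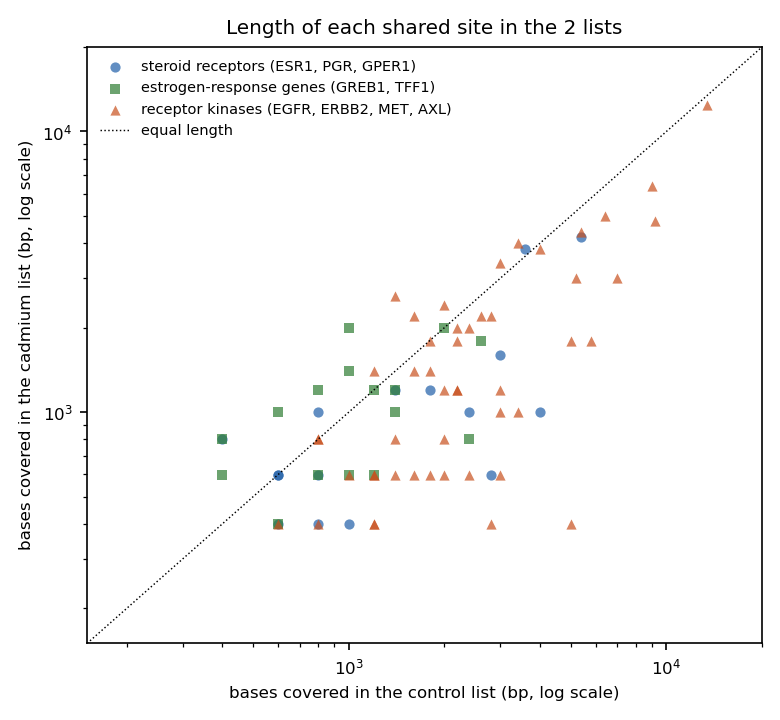
Bases covered at each of the 81 shared sites in the control list (horizontal axis, bp, log scale) and in the cadmium list (vertical axis, bp, log scale), 1 point per site, with symbols for the role of the gene and a dotted line at equal length. Most points of the kinase genes lie below the line, with 40 of 49 shorter in cadmium.

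ESR1 was the only one of the 9 genes with start-site peaks in the control list and none in the cadmium list. A gene was counted as having a start-site peak when a peak lay within 1 kb of any of its annotated starts. By this rule 8 of the 9 genes had one in the control list and 7 in the cadmium list, beside 73.2% and 71.5% of all protein-coding genes. A start-site peak in control only, as at ESR1, was found in 3.20% of protein-coding genes.

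The ESR1 gene occupies chr6:151656691-152129619 on the plus strand and has 12 annotated starts. In the control list 7 of them were within 1 kb of a peak, and in the cadmium list none was. The 3 control peaks concerned were chr6:151803601-151803999 (399 bp), chr6:151805401-151806399 (999 bp) and chr6:151808001-151809199 (1199 bp). Their centres were 3882 and 1782 bp upstream and 918 bp downstream of the canonical start at position 151807682. The canonical start base itself was in no peak of either list, 319 bp from the nearest control peak.

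In the cadmium list the nearest peaks to that start were chr6:151765601-151765999 and chr6:151958401-151958799, which leave 192401 bp without a peak. The nearest cadmium peak was more than 37 kb from each of the 3 lost start-site peaks, with gaps of 37601, 39401 and 42001 bp. None of the 3 thus had a cadmium peak close by.

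ESR1 lost 6 of its 14 control peaks and gained 1 of 9 cadmium peaks. The other 3 lost peaks were chr6:151627801-151628399 upstream of the gene, chr6:151900801-151902199 in an intron and chr6:152087001-152087599 in an intron near the 3′ end. The last of these lay only 801 bp from a cadmium peak, while the intronic one was 56201 bp from the nearest. The gained peak, chr6:151765601-151765999, was 1001 bp from a shared control peak.

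The 8 shared sites of ESR1 were all distal to its starts, with 4 shorter in cadmium, 2 longer and 2 equal. The window was covered over 11186 bp in control and 5991 bp in cadmium, a ratio of 0.536, where all of chromosome 6 had 0.614. No ESR1 peak of either list was wider than 1399 bp.

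**Figure D3:**
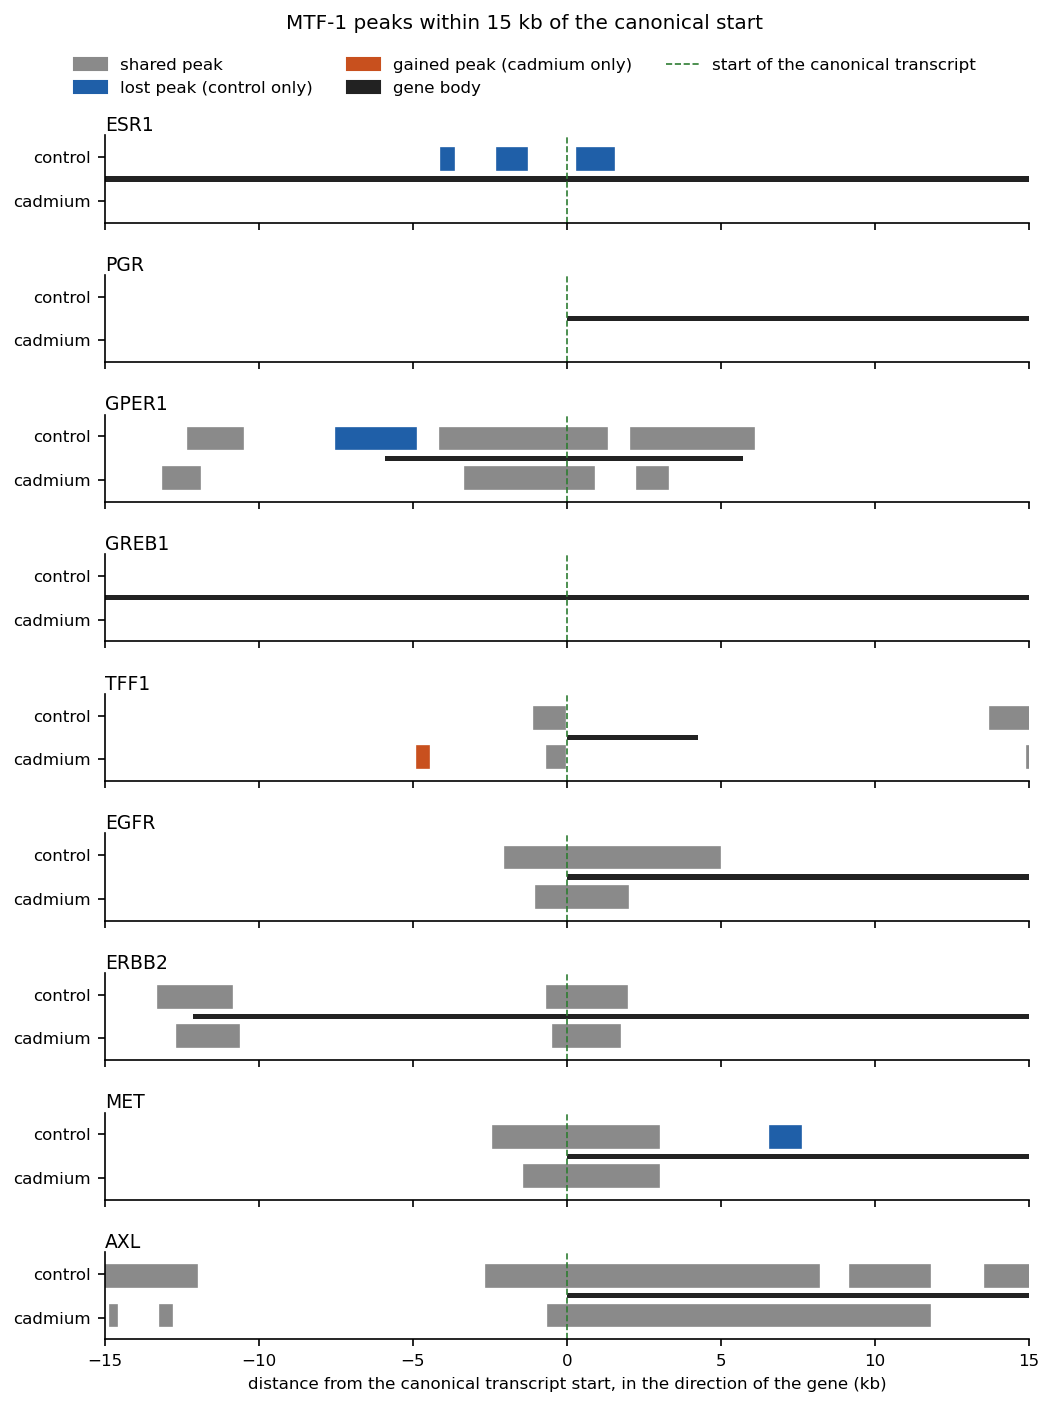
MTF-1 peaks within 15 kb of the canonical start of each gene, as distance from the start in the direction of the gene (horizontal axis, kb), with the control list above and the cadmium list below the gene body (black). Grey is shared, blue is lost and orange is gained; at ESR1 3 lost peaks stand around the start and the cadmium row is empty, PGR and GREB1 are empty in both rows, and at EGFR and MET the shared start peak is shorter in cadmium.

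PGR carried almost no MTF-1 peaks. Its window held 1 peak in each list, and it was the only one of the genes with no start-site peak in either list, as were 25.3% of protein-coding genes. At most 1 peak in each list was found in 11.1% of windows of protein-coding genes. The shared site lay upstream of the gene, at chr11:101175801-101176799 (999 bp) in control and chr11:101176401-101176799 (399 bp) in cadmium.

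Around the PGR start, at position 101129813 on the minus strand, 245201 bp were free of peaks in the control list and 246001 bp in the cadmium list. The peak-free stretch took in the whole gene, chr11:101029624-101129813, and all 6 annotated starts. The covered length of its window was 999 bp in control and 399 bp in cadmium, a ratio of 0.399, and chromosome 11 as a whole had 0.480. With a single site, this ratio rests on 3 bins of 200 bp.

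GPER1 differed from the nuclear receptors in carrying peaks over its starts in both lists. It lies at chr7:1082208-1093815, inside C7orf50, so that the 2 genes share these peaks. The canonical start was covered by chr7:1084001-1089399 (5399 bp) in control and chr7:1084801-1088999 (4199 bp) in cadmium. All 4 annotated starts were within 1 kb of a control peak and 3 within 1 kb of a cadmium peak.

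The start without a cadmium peak, at position 1082208, lay in the lost peak chr7:1080601-1083199 (2599 bp). The cadmium peak nearest to the lost one was 1601 bp away, a much shorter gap than at ESR1. The only gained peak, chr7:1114401-1117999, was 3599 bp wide and lay downstream of GPER1 in C7orf50, 18801 bp from the nearest control peak. It was the widest of the 12 gained peaks.

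Of the 7 shared sites at GPER1, 6 were shorter in cadmium. The site beside the canonical one, at chr7:1090201-1094199 in control, went from 3999 to 999 bp. Over the window, 25592 bp were covered in control and 16992 bp in cadmium, a ratio of 0.664, beside 0.533 for chromosome 7.

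**Figure D4:**
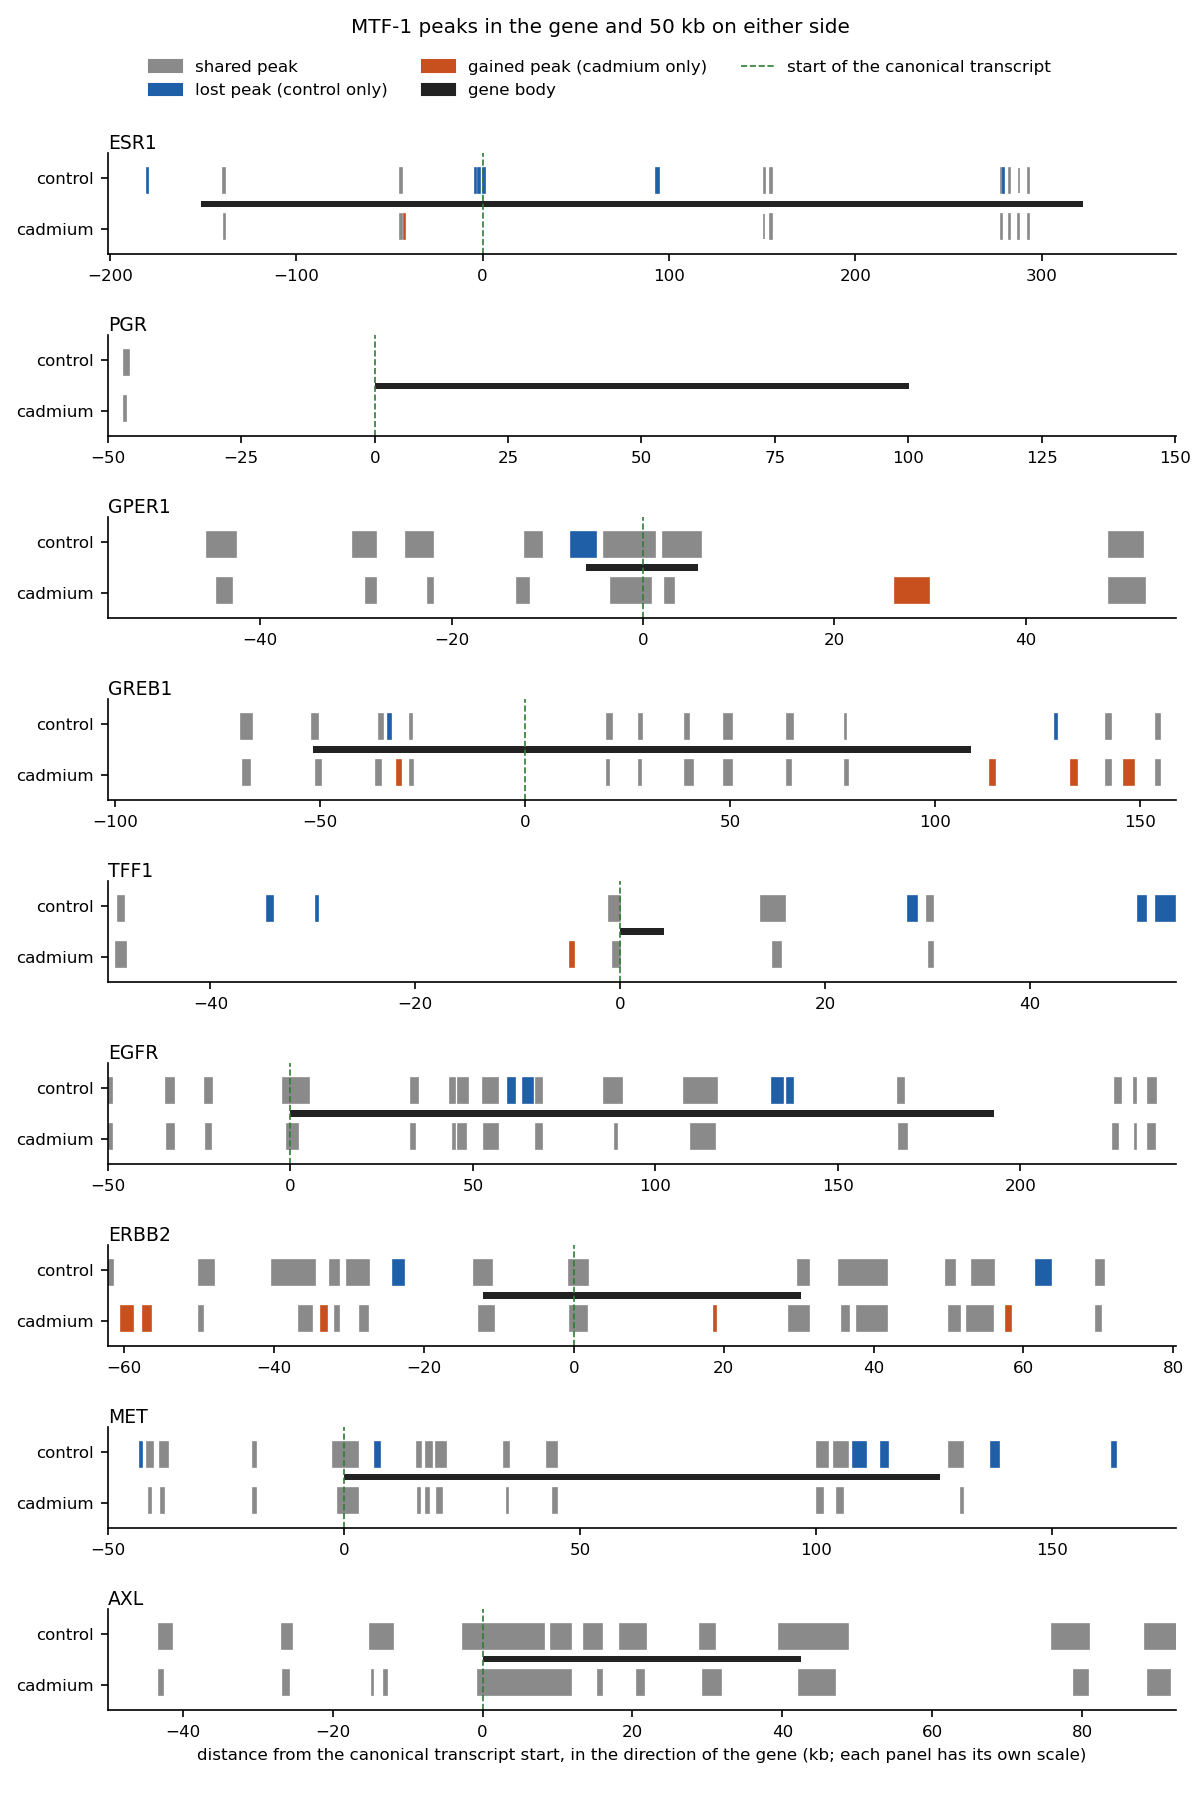
All peaks in the gene and 50 kb on either side, as distance from the canonical start in the direction of the gene (horizontal axis, kb, with its own scale in each panel), with the control list above and the cadmium list below the gene body (black). Grey is shared, blue is lost and orange is gained; PGR has 1 peak in each row, GREB1 and ERBB2 have 4 and 5 gained peaks, and EGFR and MET have none.

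GREB1 was the only member with more bases covered in cadmium. GREB1, a cofactor of estrogen receptor alpha that estrogen induces, lies at chr2:11482341-11642788. Its window was covered over 15386 bp in control and 20384 bp in cadmium, a ratio of 1.32. More cadmium than control coverage was found in 20.9% of windows of protein-coding genes, and chromosome 2 as a whole had a ratio of 0.878.

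The window lost 2 of 14 control peaks and gained 4 of 16 cadmium peaks. The lost peaks were chr2:11500601-11501399 in an intron and chr2:11663401-11663799 downstream. Of the gained peaks, chr2:11502801-11503799 lay in an intron, 1401 bp from the lost intronic peak. The others, chr2:11647401-11648599, chr2:11667201-11668599 and chr2:11680201-11682599, all lay downstream of GREB1. The last of them, 2399 bp wide, was 34 bp from the start of a noncoding gene and also lay over LPIN1, which encodes a phosphatidate phosphatase. Thus 3 of the 4 gained peaks were outside GREB1.

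Near the starts of GREB1, both lists had peaks within 1 kb of 3 of 10 annotated starts. At the most upstream start the control peak was chr2:11482201-11483599 and the cadmium peak chr2:11483001-11484199, and only the first covered the start base. At the internal start the site went from 399 bp to 799 bp, from chr2:11612001-11612399 to chr2:11612001-11612799. The canonical start at position 11534045 was 19956 bp from a peak in both lists. Of the 12 shared sites, 5 were shorter in cadmium, 5 longer and 2 equal, and the widest reached 2599 bp.

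TFF1 kept a peak at its start and lost peaks around its neighbors. TFF1, a secreted trefoil peptide that is a standard marker of estrogen response, lies at chr21:42362282-42366535 on the minus strand. The start-site peak was chr21:42366601-42367599 (999 bp) in control and chr21:42366601-42367199 (599 bp) in cadmium, and in both it began 66 bp upstream of the start.

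The window lost 5 of 9 control peaks and gained 1 of 5 cadmium peaks. Of the lost peaks, chr21:42312401-42314199 and chr21:42315201-42315999 were at starts of TFF3, another trefoil peptide gene, 386 and 191 bp from them. Another, chr21:42396001-42396199, was a single bin 9 bp from a start of the protease gene TMPRSS3. The remaining lost peaks were chr21:42337601-42338399 and chr21:42400401-42400999. All 3 annotated TFF3 starts were within 1 kb of a control peak and none within 1 kb of a cadmium peak, while the 2 starts of TFF2 had one in both lists.

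The gained peak at TFF1, chr21:42371001-42371399, lay 4665 bp upstream of the start and 3401 bp from the nearest control peak. It was the gained peak that was second nearest to a start of the gene in whose window it lay, after that at ERBB2. Of the 4 shared sites, 3 were shorter in cadmium, and the widest went from 2399 bp (chr21:42350401-42352799) to 799 bp (chr21:42350801-42351599). The window had 8791 bp covered in control and 3195 bp in cadmium. This ratio, 0.363, was the smallest of the 9, beside 0.735 for chromosome 21, and 6.86% of the windows of protein-coding genes covered in both lists had a lower one.

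**Figure D5:**
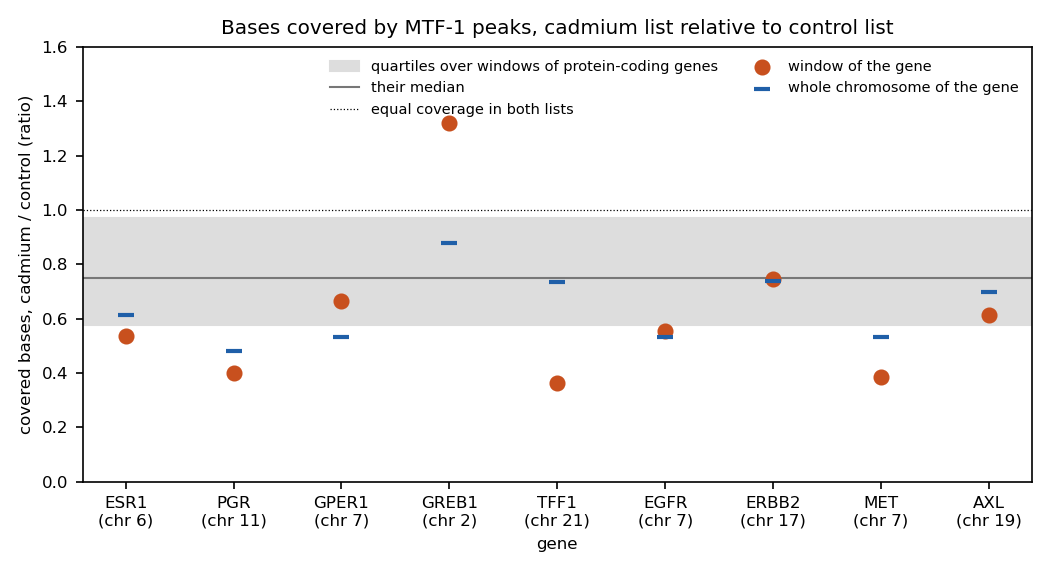
Bases covered by the cadmium list divided by those covered by the control list (vertical axis, ratio) for each gene window (orange points) and for the whole chromosome of the gene (blue dashes). The grey band holds the middle of the ratios over windows of protein-coding genes, between quartiles of 0.578 and 0.972 with a median of 0.750; GREB1 at 1.32 is the only gene above 1, and TFF1, MET and PGR lie below 0.4.

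EGFR and MET lost peaks and gained none, a pattern found in 33.5% of windows of protein-coding genes. At least 1 lost peak was found in 62.4% of those windows and at least 1 gained peak in 45.3%. Among the 9 genes, 7 had a lost peak and 5 a gained one. EGFR is the receptor for epidermal growth factor and MET the receptor for hepatocyte growth factor. Both are on chromosome 7, where 34.3% of all control peaks were lost and the covered ratio was 0.533.

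At EGFR, chr7:55019017-55211628, the peak over the canonical start narrowed from 6999 bp (chr7:55017001-55023999) to 2999 bp (chr7:55018001-55020999). The control peak reached 2016 bp upstream and 4982 bp downstream of the start, and the cadmium peak 1016 and 1982 bp. The shortening was thus larger on the side of the gene, where the cadmium peak ended 3000 bp earlier.

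The 4 lost peaks of EGFR all lay inside the gene, at chr7:55078601-55080599, chr7:55082801-55085399, chr7:55151001-55153999 and chr7:55155001-55156599. The first 2 were in introns and had cadmium peaks 2801 and 801 bp away. The other 2 lay over exons, with the nearest cadmium peak 15801 and 19801 bp away. The lost peak of 2999 bp among them was the widest lost peak of the 9 genes.

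Of the 15 shared sites at EGFR, 12 were shorter in cadmium, 1 longer and 2 equal. The site chr7:55104801-55109799, over an exon, went from 4999 to 399 bp, the largest difference of the 81 sites, and with it 1 of 8 marked EGFR starts lost its peak. The widest site, in an intron, went from 8999 bp (chr7:55126801-55135799) to 6399 bp (chr7:55128801-55135199). In total 52781 bp were covered in control and 29185 bp in cadmium, a ratio of 0.553.

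At MET, chr7:116672196-116798377, the start-site peak changed less. It spanned chr7:116669801-116675199 (5399 bp) in control and chr7:116670801-116675199 (4399 bp) in cadmium. Its downstream edge was the same in both lists, and the difference of 1000 bp was all upstream of the start. It was the widest MET peak of both lists.

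MET lost 6 of 18 control peaks. Those inside the gene were chr7:116678801-116679799, which lies 6910 bp from a start, chr7:116780001-116782799 over an exon and chr7:116786001-116787399 in an intron. The others were chr7:116629001-116629399 upstream, chr7:116809201-116810799 between MET and CAPZA2, and chr7:116834801-116835599 in CAPZA2, which encodes a subunit of the actin capping protein. Of the 12 shared sites, 11 were shorter in cadmium and none was longer. The covered bases went from 32582 bp in control to 12588 bp in cadmium, a ratio of 0.386.

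ERBB2 had the most gained peaks of the 9 genes, 5 of 17 cadmium peaks, and lost 2 of 14. ERBB2, or HER2, is a kinase of the EGFR family with no ligand of its own, and lies at chr17:39687914-39730426 in a gene-dense stretch. The gained peaks were chr17:39639601-39641199 and chr17:39642601-39643599 at STARD3, chr17:39666401-39667199 over TCAP and near PNMT, chr17:39718801-39718999 in an ERBB2 intron and chr17:39757801-39758399 in IKZF3. Only the intronic peak, a single bin of 199 bp, lay in ERBB2, 1471 bp from an internal start. The gained peak near PNMT was 401 bp from a control peak, the smallest gap of the 38 lost and gained peaks.

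The lost peaks at ERBB2, chr17:39676001-39677399 and chr17:39761801-39763799, were both 3401 bp from a cadmium peak. The canonical start was covered by chr17:39699401-39701999 (2599 bp) in control and chr17:39699601-39701799 (2199 bp) in cadmium, which is 200 bp shorter on each side. The most upstream start had shared peaks of 2399 and 1999 bp, which also lay over PGAP3. The peak over the canonical start of ERBB2 thus differed least in length among the kinases. Of 21 annotated starts, 10 were within 1 kb of a control peak and 11 within 1 kb of a cadmium peak, the difference being the site at the 3′ end that grew from 1399 to 2599 bp (chr17:39728801-39731399 in cadmium).

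Of the 12 shared sites at ERBB2, each taken over its whole length, 8 were shorter in cadmium and 4 longer. Among the longer ones, chr17:39633801-39638599 reaches beyond the window, and its cadmium peak lies outside the window. The widest control peak was chr17:39735401-39741799 (6399 bp), at GRB7, an adaptor gene. The window had 34073 bp covered in control and 25383 bp in cadmium, a ratio of 0.745, beside 0.737 for chromosome 17.

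AXL had no lost and no gained peak, and had the widest peaks of all. Peaks with none lost or gained were found in 15.6% of windows of protein-coding genes, and among the 9 genes at PGR and AXL. AXL, the receptor for GAS6, lies at chr19:41219223-41261766. Both lists held 11 peaks there.

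Over the AXL start, the control list had chr19:41216601-41227399 (10799 bp) and, after a gap, chr19:41228401-41230999 (2599 bp). The cadmium list had 1 peak over both, chr19:41218601-41230999 (12399 bp). In the whole lists, 423 control peaks and 160 cadmium peaks were at least as wide as these. The cadmium peak began 2000 bp closer to the start than the control peak, and ended at the same base as the second control peak. AXL was the only member at which the peak over the canonical start was wider in cadmium, and the number of bases covered at that site was still higher in the control list.

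Of the 10 shared sites at AXL, the start site included, 9 were shorter in cadmium and 1 was longer. The site at the 3′ end went from 9199 bp (chr19:41258801-41267999) to 4799 bp (chr19:41261401-41266199), over HNRNPUL1 as well. The covered bases of the window went from 45756 to 27989 bp, a ratio of 0.612, beside 0.697 for chromosome 19. AXL was the most densely covered of the 9 windows, with 32.1% of its bases in control peaks and 19.6% in cadmium peaks. The median over windows of protein-coding genes was 6.81% in control and 4.93% in cadmium.

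The lost peaks of the 9 genes had a median width of 1099 bp, the gained peaks 999 bp, and the shared peaks 1799 bp in control and 999 bp in cadmium. Over both whole lists, lost peaks had a median of 999 bp, gained peaks 599 bp, and shared peaks 1599 bp in control and 1199 bp in cadmium. Of the 26 lost peaks, 4 were within 1 kb of a start of the gene in whose window they lay, 3 at ESR1 and 1 at GPER1, and none of the 12 gained peaks was. In all, 14 of 26 lost peaks and 3 of 12 gained peaks lay inside the gene itself. For comparison, 10 of 82 shared control peaks were within 1 kb of such a start and 45 lay inside the gene. Of 82 shared cadmium peaks, the counts were 10 and 44. The same counts over all lost and all gained peaks are not given. These counts are therefore not read as a difference between lost and gained peaks.

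Motifs were counted in the 500 bp around each peak centre. The AP-1 word was in 3 of 26 lost peaks (11.5%), against 24.5% of all lost peaks, and in none of 12 gained peaks, against 32.6% of all gained peaks. In the whole length of the gained peaks it was present in 4 of 12 (33.3%), against 43.1% of all gained peaks. Forkhead words were in 11 of 26 lost peaks (42.3%, all lost peaks 41.1%) and in 3 of 12 gained peaks (25.0%, all gained peaks 25.5%). In whole gained peaks forkhead words were in 8 of 12 (66.7%), against 31.3% of all, and the median width was 999 bp at these genes and 599 bp over all gained peaks. The MRE core was in 7 lost peaks (26.9%, all 28.8%) and 2 gained peaks (16.7%, all 30.6%). Of 82 shared control peaks, the 500 bp held AP-1 in 25.6% (all 24.5%), forkhead words in 13.4% (26.4%) and MRE cores in 42.7% (36.5%). For 82 shared cadmium peaks the shares were 32.9% (all 27.5%), 22.0% (25.5%) and 37.8% (36.5%). With 12 gained peaks the gained shares are coarse, and a word not found says only that its letters are not in that span.

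The exact estrogen response element was in no 500 bp span of any class at these genes, and it is rare in the lists, with 0.0516% of all lost and 0.0771% of all gained peaks. In whole peaks it was found once, at the AXL start in both lists, in 1 of 82 shared peaks of each list (1.22%). The peaks that hold it are 10799 bp wide in control and 12399 bp in cadmium. Over all shared peaks, taken whole, the element was in 0.278% in control and 0.210% in cadmium. With 1 mismatch in the 10 half-site bases, it was in the whole length of 7 of 108 control peaks (6.48%, all control peaks 5.76%) and 6 of 94 cadmium peaks (6.38%, all cadmium peaks 4.99%). These were 12 shared peaks, at GPER1, GREB1, TFF1, EGFR, ERBB2 and AXL, and the gained GREB1 peak of 2399 bp. No peak at ESR1, PGR or MET held such a match.

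Other genes of these pathways were counted in the same way. Of 18 partners and targets of the estrogen receptor, 17 had a start-site peak in control and 16 in cadmium. AGR2, an estrogen-induced protein disulfide isomerase, and TFF3 had one in control only, and GATA3, a luminal transcription factor, in cadmium only. The lost peaks at the TFF3 starts are those already given for the TFF1 window. In the windows of these 18 genes 31 of 134 control peaks were lost (23.1%) and 20 of 137 cadmium peaks gained (14.6%). The AGR2 window lost 5 of 6 control peaks and had the lowest covered ratio of this list, 0.140. The GATA3 window gained 3 of 5 cadmium peaks and had the highest, 3.57. FOXA1, which opens chromatin for the estrogen receptor, and XBP1, a target of the receptor, had start-site peaks in both lists.

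Of 18 other receptor tyrosine kinases, 17 had a start-site peak in both lists and FLT1, a receptor for vascular endothelial growth factor, in neither. They lost 27 of 149 control peaks (18.1%) and gained 16 of 145 cadmium peaks (11.0%), with a median covered ratio of 0.793. The 4 member kinases, at 0.386 to 0.745, all lay below that median. The ratios of the 18 ranged from 0.375 at FGFR2 to 1.04 at MST1R and so took in those of the members. The median over windows of protein-coding genes was 0.750. Of 9 ligands of the member kinases, 8 had a start-site peak in both lists, and HGF, the ligand of MET, in neither. Counting each peak once, their windows lost 20 of 82 control peaks (24.4%) and gained 3 of 61 cadmium peaks (4.92%).

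The EGFR ligands AREG and EREG, which lie side by side and share peaks, lost 6 of 14 and 5 of 13 control peaks and gained none. TGFA, a further ligand of EGFR, lost 4 of 10 and gained none. GAS6, the ligand of AXL, lost 2 of 20 and gained 1 of 17. Of 10 adaptors and regulators, all had a start-site peak in both lists, and their windows lost 20 of 85 control peaks (23.5%) and gained 9 of 81 (11.1%). ERRFI1, an inhibitor of EGFR, lost 7 of 15 and gained none.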

How the data were processed

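Per the paper's methods, reads were adaptor-trimmed and mapped by the authors to hg38 (Bowtie2). They then merged both libraries of a condition with SAMtools 1.8 and called broad peaks with Epic2 0.0.50 at default settings, which the submitters' processing notes list as SICER. The 2 deposited lists give the position of each peak in bp, as starts and ends on a grid of 200 bp, and hold no count, signal or score. No control library is named. Merged lists have no replicate error, and a small difference in depth can move a peak across the calling threshold.

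Windows, classes, covered bases and motifs were computed with Python 3.11.15, numpy 2.4.6 and pysam 0.24.0, with 1 shared base as overlap. Distances run from peak centres unless an edge is named. Wilson intervals were computed with scipy 1.17.1. The steps were tested on simulated data. No test between conditions was possible, so counts stand beside those of all peaks or of the 20033 protein-coding genes. The genes and lists were chosen with earlier results of these data known. Every lost and gained peak, and the start-site and widest shared peaks, were to be named. Alternatives changed the overlap rule, peak width, window, start distance and motif span, or left out 1 gene at a time. Sequences of some peaks near the starts of TFF1, ERBB2 and MET are not reported here.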

Additional observations from a re-analysis of the deposited data

How the results depend on the processing

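Of 81 alternatives to the main counts, shares and ratios, 71 stayed within 1.5 times the value reported. Many of the 81 left out 1 gene at a time, and of these only the one without ERBB2 changed a result by more than that. Leaving out PGR or AXL could not change the lost or gained counts, as neither had such a peak. No lost peak lay within 600 bp of a cadmium peak, so leaving such peaks out could not change the lost count. Calling a peak unique when under 50% of it was covered by the other list raised the lost peaks from 26 to 56 and their share to 51.9%. Using only peaks of at least 1000 bp raised the lost share to 47.9%. Shares over all peaks are not given for these 2 settings. The 27.9% lost and 15.1% gained of the whole lists belong to the rule of 1 shared base with peaks of all widths. With the gene and no flank, 14 lost and 3 gained peaks were left, with a gained share of 6.38%, and with 10 kb on either side 14 and 5. With 100 kb on either side 19 peaks were gained. Without ERBB2, 7 were gained. The cover rule defines uniqueness more loosely, the width limit drops narrow peaks from both lists, and the other settings change which bases or genes are counted. The 3 start-site peaks lost at ESR1 were also counted when peaks within 600 bp of a cadmium peak were left out, an alternative chosen after seeing the data. That rule could not remove them, since the nearest cadmium peak was 37601 bp or more from each. Motif counts in whole peaks were larger than in 500 bp, as the span is longer. No paired analysis was possible because the deposited lists merge the replicates of each condition. Without read counts, a peak below the calling threshold cannot be told from a site without MTF-1, and no difference between the lists could be set against replicate error.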

Other observations

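Some neighboring genes that reach into the windows had start sites whose peaks differed between the lists, counted over all starts of each gene. Others had the same count in both lists. How common such differences are over the starts of all genes was not counted. At STARD3, a cholesterol-binding protein gene upstream of ERBB2, 17 of 25 annotated starts were within 1 kb of a control peak and 10 within 1 kb of a cadmium peak. At TMPRSS3, in the TFF1 window, 3 of 7 starts had a control peak and none a cadmium peak. At GRB7, 12 of 14 starts had one in both lists, and at E2F6, a transcription factor gene upstream of GREB1, 9 of 10 in both. At SYNE1, which encodes a nuclear envelope protein and lies next to ESR1, 1 of 47 starts was within 1 kb of a control peak and 2 within 1 kb of a cadmium peak.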
